A study of Homo sapiens with 10 samples.

Results

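Senescent IMR90 fibroblasts with METTL3 knockout were compared with senescent IMR90 fibroblasts that carried a control knockout, called senescent control below. Each group held 2 samples, so the comparison used 4 of the 10 samples of the series, chosen by the titles and the matching column names of the count table and by no measured value. All genes were covered: 16760 of the 57736 in the table passed a filter on low counts. IMR90 is an established line of human fetal lung fibroblasts. Per the labels, both groups are senescent and their columns carry the word RAS, which the protocol uses for a retrovirus that expresses this oncogene. At day 4 after the retrovirus the cells were transfected with siRNA, which was non-targeting in senescent control and aimed at METTL3 in the knockout per the column names. On the following day they were transfected again, at the step where the protocol also lists infection with a METTL14 lentivirus, and were harvested 48 hours after that. The titles say knockout for what the protocol describes as siRNA, and the protocol text names METTL14 where titles and columns name METTL3. The columns of the knockout also hold the word vec. The siRNA sequences, their number, and whether these groups were infected with an empty lentivirus at that step, are not stated, so an effect of a lentiviral infection and one of the siRNA cannot be told apart. Growing cells with an empty retrovirus and the non-targeting siRNA (2 samples) serve below to place levels, and they entered the fit as given with the processing. Their replicates differed more than those of any other group. Nothing in the labels says that the replicates came from separate cultures. A p-value here therefore sets the difference between the groups against the spread of replicates and no more. That spread was estimated over all 10 samples, and it may be technical.

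METTL3 is the catalytic subunit of the nuclear complex that writes N6-methyladenosine (m6A) on RNA, and METTL14 is its partner, which helps to hold the RNA. Oncogenic RAS drives fibroblasts into senescence, an arrest of division in which the nuclear lamina thins and the cells secrete cytokines, chemokines, proteases and growth factors, together called the senescence-associated secretory phenotype (SASP). In the usual account the cytokine IL1A on the cell surface acts through its receptor IL1R1 and the adaptors MYD88, IRAK and TRAF6 on the transcription factor NF-kB, which with C/EBP beta switches on IL6, CXCL8 and their neighbours. The title of the series names a role of METTL3 and METTL14 in this secretory programme that does not depend on m6A.

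The 4 libraries held 16335277 to 22329688 counts. All 14 fibroblast markers had counts in each of them, with summed levels of 10090 to 10858 CPM, a gene's counts relative to the scaled size of its library, in senescent control and 10400 to 11000 CPM in the knockout. The similar sums do not mean that each marker was unchanged. By the test given below, 4 of the 14 (28.6%) were called higher and 1 (7.1%) lower, against 7.17% and 8.62% of all genes. Markers of other lineages had similar sums in both groups: 4 epithelial markers summed to 5.16 to 6.25 CPM against 5.21 to 5.71 CPM, with the lung epithelial gene SFTPC at 0, and 6 leukocyte markers summed to 74.5 to 76.8 CPM against 78.2 to 79.5 CPM, nearly all of it CD68, with CD3E at 0. Of the endothelial markers, the cadherin CDH5 was also at 0, VWF had 2 and 7 counts against 3 and 4, and PECAM1 was not matched to a gene. The leukocyte marker PTPRC had 9 and 12 counts against 2 and 6. In bulk RNA, fewer cells of a kind and less RNA per cell cannot be told apart.

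METTL3 itself was lowered and not absent. It stood at 47.3 and 57.3 CPM in the samples of senescent control and at 23.2 and 28.9 CPM in those of the knockout, and the groups did not overlap. This was a log2 change of -1.005 (SE 0.15), edgeR adjusted p = 0.000872, and growing cells averaged 77.05 CPM. METTL14 had 25.6 and 26.02 CPM against 29.1 and 29.9 CPM and did not pass the test (log2 change 0.19, SE 0.14, adjusted p = 0.408), although the protocol text gives it as the siRNA target. Of 8 genes of the writer complex tested, METTL3 was the 1 called. The scaffold WTAP, which docks the METTL3 and METTL14 pair, was not called (log2 change -0.28, SE 0.10). None of 13 erasers and readers of m6A was called by edgeR (0 at an unadjusted p under 0.05, 0 by DESeq2), among them the nuclear reader YTHDC1 (log2 change 0.15, SE 0.11). HRAS, one of the RAS genes, was lower in the knockout, at 61.03 and 61.3 CPM against 40.8 and 39.5 CPM (log2 change -0.61, SE 0.11), and still above its growing level of 14.7 CPM. Its part in the results below was not tested.

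Across all genes 7.17% were called higher and 8.62% lower in the knockout, 15.8% in either direction, at an adjusted p under 0.05 in edgeR's quasi-likelihood test. A change of 1 or more on the log2 scale was seen in 2.04% (higher) and 1.95% (lower). The median change of all genes was 0.006, with quartiles at -0.21 and 0.25. In 64.6% of genes the samples of the groups did not overlap in either direction, so a lack of overlap is common here and carries little by itself. Words such as rose, fell, higher and lower are used of a gene below only where it was called, and each such gene stayed called under every one of 9 alternative ways of processing that gave it an adjusted p, unless the highest adjusted p over them is given. DESeq2 gave none for CSF2, LCE1E and EEF1A1P5. Counts of list members are read against the 7.17% and 8.62% of all genes, and the lists themselves were not tested. Genes were named by the rule given with the processing. Others, which are most of those given as not called and OSMR, IL6ST, VEGFA, OAS3, GBP1, PARP9, IFI6, ISG15, CDK1, CCNB2, FOXM1, KIF20A, MCM6, TXN, PFKP, GAPDH and PKM, were chosen for their role after their values were seen.

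**Figure D1:**
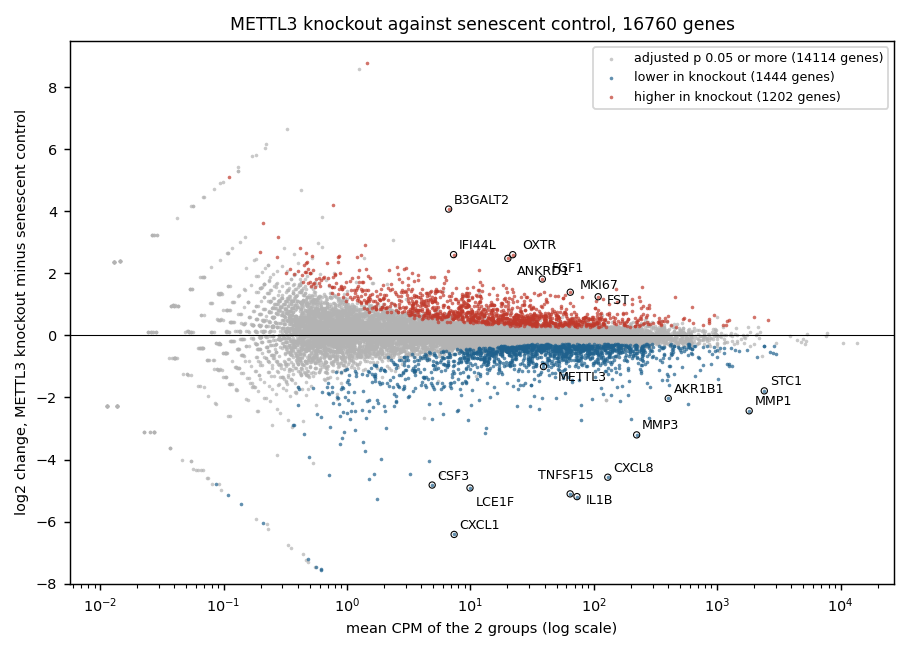
Log2 change between METTL3 knockout and senescent control (vertical axis) against the mean CPM of both groups (horizontal axis, log scale) for each of the 16760 genes tested, with 1202 genes called higher in red, 1444 called lower in blue and the rest in grey. Circled genes are named in the text; CXCL1, IL1B, TNFSF15, LCE1F, CSF3 and CXCL8 lie lowest of them, and B3GALT2 lies highest. Streaks at the left are genes with very few or 0 counts in one group, whose fitted change depends on the prior count.

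**Figure D2:**
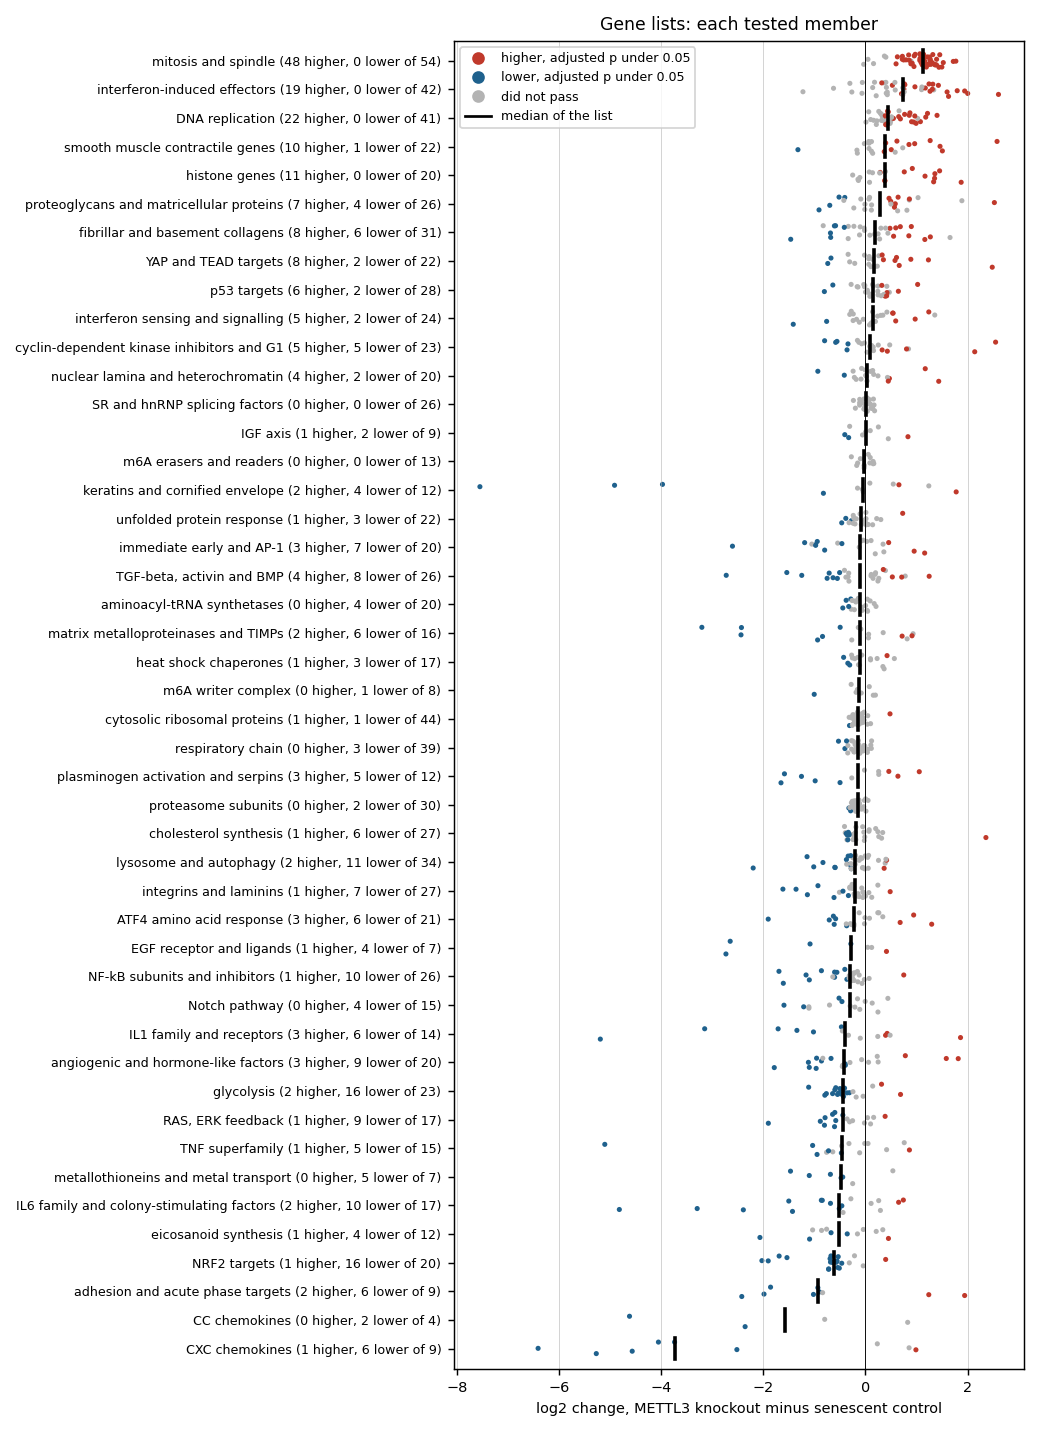
Log2 change of each tested member of the gene lists (horizontal axis), 1 point a gene, coloured by its call. A black bar marks the median of each list, and the counts of members called stand beside its name. The lists of other cell types, fibroblast identity, C/EBP and GATA factors, antigen presentation and long noncoding RNAs are not drawn. Mitosis, interferon-induced and DNA replication genes lie at the top with rises and no falls, and chemokines, adhesion genes and NRF2 targets lie at the bottom with mostly falls.

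The chemokines of the CXC family are shown first, since the median change of this list was the lowest of all the lists. They are small secreted proteins that draw in neutrophils or lymphocytes, and several share a recognition site for NF-kB, the kB motif, just before the start of transcription. In the 250 bases upstream of the start in RefSeq (GRCh38.p14), a match to the kB motif on either strand was found in 6 of the 8 CXC genes that had a promoter entry, against 5.8% of the 11548 tested genes with an entry. CXCL8 and CXCL12 had no match in this window. The pattern was GGGRNWYYCC (R is A or G, W is A or T, Y is C or T, N is any base). A site that departs from it by a base is missed, so no match does not mean no site. The windows below run 5′ to 3′ along the gene's strand with the match in capitals, at chr4:73869299-73869339 (+) for CXCL1, chr4:74099248-74099288 (-) for CXCL2, chr4:74038743-74038783 (-) for CXCL3, chr4:73998743-73998783 (-) for CXCL5, chr4:76023650-76023689 (-) for CXCL10 and chr4:76036122-76036161 (-) for CXCL11. CXCL10 had a further match nearer its start.
CXCL1: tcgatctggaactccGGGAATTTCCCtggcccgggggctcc
CXCL2: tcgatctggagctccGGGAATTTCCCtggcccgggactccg
CXCL3: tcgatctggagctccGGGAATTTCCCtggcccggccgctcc
CXCL5: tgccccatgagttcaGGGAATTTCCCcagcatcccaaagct
CXCL10: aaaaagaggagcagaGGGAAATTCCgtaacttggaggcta
CXCL11: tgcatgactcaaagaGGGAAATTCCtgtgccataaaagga
CXCL1, CXCL2, CXCL3 and CXCL5 carry the same capital letters, and so do CXCL10 and CXCL11. A match is a description of the sequence and not a measured site. CXCL11, which holds one, was not called, as given below. Over all genes, a kB match was present in 9.1% of 220 promoters of genes that fell by at least 1 on the log2 scale. It was present in 6.6% of 212 that rose by as much and 5.7% of 9558 that were not called. The 220 include CXC chemokines, so their share repeats part of that list's.

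Of 9 CXC chemokines tested, 6 fell and 1 rose, with a median change of -3.74. CXCL8, the main neutrophil attractant of the SASP, stood at 276 and 223 CPM in senescent control and at 10.4 and 10.6 CPM in the knockout, a log2 change of -4.57 (SE 0.14), edgeR adjusted p = 3.52e-09. CXCL1 went from 17.1 and 12.2 CPM to 0.173 and 0.156 CPM (log2 change -6.41, SE 0.37), the deepest of the 12 largest falls set by the naming rule. CXCL5 went from 9.21 and 8.35 CPM to 0.577 and 0.469 CPM (log2 change -4.06, SE 0.26). In these 3 genes every knockout sample lay below every senescent control sample, yet above the growing means of 0.839, 0.0219 and 0.222 CPM. CXCL3 had 136 counts over the senescent control samples and 3 over the knockout samples, a ratio of 41.2 (95% interval 13.8 to 202, counting error only). CXCL2 fell by 3.74 on the log2 scale (SE 0.45). The interferon-inducible chemokine CXCL10, which draws in T cells, fell by 2.52 on the log2 scale (SE 0.26), from 10.8 and 9.63 CPM to 1.15 and 2.35 CPM. CXCL11, which acts on the same receptor as CXCL10, had 0.548 and 0.867 CPM against 0.519 and 1.15 CPM with overlapping groups (log2 change 0.23, SE 0.44). CXCL12, a constitutive stromal chemokine that holds blood progenitors in place, went the other way, from 10.04 and 10.7 CPM to 19.9 and 21.3 CPM (log2 change 0.99, SE 0.11), with a growing mean of 73.1 CPM.

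Of the CC chemokines 4 could be tested and 2 fell. CCL2, which recruits monocytes, had 57.1 and 64.5 CPM against 10.51 and 13.1 CPM, a log2 change of -2.36 (SE 0.15) that left the knockout below the growing mean of 40.4 CPM. CCL20, an attractant of dendritic and Th17 cells, had 3.67 and 2.10 CPM against 0.173 and 0.0522 CPM (log2 change -4.62, SE 0.53) and 0 counts in growing cells. CCL26 (log2 change -0.80, SE 0.44) and CCL28 (log2 change 0.83, SE 0.33) were not called.

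In the interleukin 1 pathway both IL1 ligands, their receptor and 2 kinases fell, and other members rose or were not called. Of 14 genes of the family and its signalling chain tested, 6 fell and 3 rose (5 to 6 and 0 to 1 without any 1 of the 4 libraries), with a median of -0.39. IL1B stood at 158 and 127 CPM in senescent control and 3.35 and 4.38 CPM in the knockout, a log2 change of -5.20 (SE 0.19), edgeR adjusted p = 3.6e-08. IL1A stood at 23.8 and 23.1 CPM and 2.66 and 2.61 CPM, a log2 change of -3.15 (SE 0.16). Both ligands were close to absent in growing cells, at 0.177 and 0.0224 CPM. The receptor IL1R1 fell by 1.34 on the log2 scale (SE 0.08), from 148 and 146 CPM to 60.1 and 55.7 CPM, which is below its growing mean of 68.7 CPM. Lower as well were IL18R1, a subunit of the IL18 receptor (log2 change -1.71, SE 0.26), and the kinase IRAK2, which sustains the signal (log2 change -1.02, SE 0.10), as was IRAK1 (log2 change -0.47, SE 0.11, highest adjusted p 0.142). The shared adaptor MYD88 (log2 change 0.39, SE 0.09, highest adjusted p 0.125), the kinase IRAK4 (log2 change 0.42, SE 0.10, highest 0.142) and the cytokine IL18 (log2 change 1.86, SE 0.35, highest 0.0524) were higher. TRAF6, the ubiquitin ligase downstream of the IRAK proteins, was not called (log2 change 0.24, SE 0.10). The antagonist IL1RN, with 0 and 3 counts against 1 and 0, was too low to test.

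In the IL6 family and the colony-stimulating factors 10 of 17 genes fell and 2 rose (7 to 8 and 0 to 1 without any 1 library), with a median of -0.51. IL6, the cytokine most often used to mark the SASP, had 13.3 and 13.3 CPM against 2.89 and 2.19 CPM (log2 change -2.39, SE 0.19). CSF3, which drives neutrophil production, had 9.98 and 8.99 CPM against 0.289 and 0.365 CPM (log2 change -4.82, SE 0.29), and CSF2 fell by 3.30 on the log2 scale (SE 0.56). Neither had a count in growing cells, whereas IL6 averaged 1.79 CPM there. LIF, a cytokine of the same family, went from 112 and 112 CPM to 38.3 and 44.7 CPM (log2 change -1.43, SE 0.13), and its relatives CLCF1 (log2 change -0.87, SE 0.12) and IL11 (log2 change -0.85, SE 0.14) fell as well. Among receptors OSMR, for oncostatin M, fell by 0.69 on the log2 scale (SE 0.10). The common signalling chain IL6ST (log2 change -0.51, SE 0.15, highest adjusted p 0.253) was also lower. The list's rises were CTF1, a cardiotrophin (log2 change 0.74, SE 0.16, highest 0.119), and the receptor IL11RA (log2 change 0.65, SE 0.18, highest 0.192).

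In the tumour necrosis factor superfamily 5 of 15 genes fell and 1 rose, with a median of -0.47. TNFSF15, a ligand of the death receptor DR3, had 129 and 121 CPM in senescent control against 4.04 and 3.23 CPM in the knockout and a growing mean of 0.309 CPM. The log2 change of -5.11 (SE 0.13) had the lowest adjusted p of the genes named here (edgeR adjusted p = 5.55e-10). The decoy receptors moved apart: TNFRSF11B, which traps RANKL, fell by 1.04 on the log2 scale (SE 0.11) and TNFRSF10D, a decoy for TRAIL, fell as well (log2 change -0.72, SE 0.09), while TNFRSF10C, the other TRAIL decoy, rose by 0.86 on the log2 scale (SE 0.14). The receptor TNFRSF1B fell by 0.95 on the log2 scale (SE 0.13). TNF itself had 1 count in the senescent control samples together and 0 in the knockout.

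**Figure D3:**
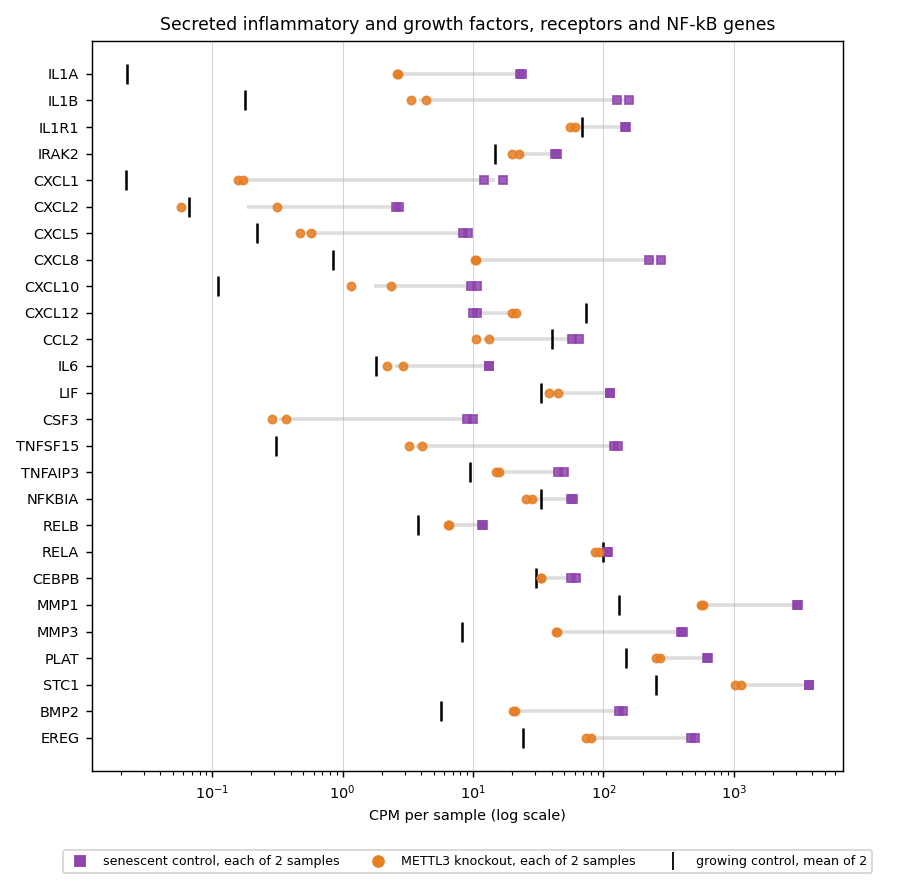
CPM (log scale) of secreted factors, receptors and NF-kB genes in each sample of senescent control (squares) and METTL3 knockout (circles), with the mean of growing cells as a bar (none is drawn for CSF3, at 0 there). Knockout circles lie left of the squares for the cytokines, most chemokines and the proteases, RELA circles lie close to the squares, and CXCL12 circles lie to the right.

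Some NF-kB subunits and genes that restrain NF-kB were lower to differing degrees, while 15 of the 26 genes on their list were not called. RELA, the main activating subunit, had 107 and 108 CPM against 86.3 and 92.1 CPM and was not called (log2 change -0.27, SE 0.11, edgeR adjusted p = 0.117). NFKB1 (log2 change -0.36, SE 0.11) and NFKB2 (log2 change -0.41, SE 0.12), which encode the partners p50 and p52, were lower, a call that some alternatives did not keep (highest adjusted p 0.237 and 0.209). RELB, the subunit of the noncanonical arm, fell from 11.95 and 11.7 CPM to 6.41 and 6.57 CPM (log2 change -0.86, SE 0.13). TNFAIP3, a ubiquitin-editing enzyme, went from 49.6 and 44.6 CPM to 15.1 and 15.7 CPM (log2 change -1.61, SE 0.12). NFKBIA, the inhibitor that holds NF-kB in the cytoplasm (log2 change -1.10, SE 0.10), and its relative NFKBIE (log2 change -1.16, SE 0.19) fell too. NFKBIZ, a nuclear cofactor for IL6 and other secondary targets, fell by 0.61 on the log2 scale (SE 0.09). The survival gene BCL2A1 went from 3.18 and 3.15 CPM to 0.115 and 0.156 CPM (log2 change -4.47, SE 0.42). The kinase MAP3K14, which starts the noncanonical arm, was the list's rise (log2 change 0.75, SE 0.22, highest 0.24). In all 10 of 26 genes of this list fell and 1 rose, and 5 to 7 and 0 without any 1 library. CEBPB, the C/EBP factor of the SASP, stood at 61.7 and 56.6 CPM and 33.1 and 33.2 CPM (log2 change -0.83, SE 0.13), close to its growing mean of 30.6 CPM. CEBPD (log2 change 0.14, SE 0.18) and CEBPG (log2 change -0.12, SE 0.11) were not called, and GATA4, a factor placed upstream of NF-kB in senescence, had 1 count in all 4 libraries.

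Inflammatory surface and acute phase genes followed, with 6 of 9 tested lower, 2 higher and a median of -0.93. ICAM1, an adhesion receptor for leukocytes, had 97.9 and 86.01 CPM against 21.6 and 28.9 CPM (log2 change -1.86, SE 0.15). VCAM1, another such receptor, had 4.17 and 5.80 CPM against 1.21 and 1.30 CPM (log2 change -1.99, SE 0.23). The complement component C3 fell by 2.42 on the log2 scale (SE 0.20). For ICAM1 and C3 the knockout lay between senescent control and the growing means of 11.4 and 0.132 CPM, and for VCAM1 its mean of 1.26 CPM lay below the growing mean of 2.30 CPM. The pentraxin PTX3 (log2 change -0.90, SE 0.10) and the bradykinin receptors BDKRB1 (log2 change -0.93, SE 0.10) and BDKRB2 (log2 change -1.02, SE 0.12) also fell. TLR3, a sensor of double-stranded RNA, rose from 1.86 and 2.24 CPM to 4.91 and 4.85 CPM (log2 change 1.24, SE 0.24), and TLR4, the endotoxin receptor, rose too (log2 change 1.94, SE 0.42, highest adjusted p 0.0723). In the eicosanoid pathway 4 of 12 genes fell and 1 rose. PTGS2, the inducible cyclooxygenase, had 21.2 and 16.8 CPM against 4.10 and 4.90 CPM (log2 change -2.07, SE 0.18), the thromboxane synthase TBXAS1 fell by 1.10 on the log2 scale (SE 0.13) and so did the constitutive cyclooxygenase PTGS1 (log2 change -0.67, SE 0.12). The prostaglandin receptor PTGER4 rose by 0.45 on the log2 scale (SE 0.11), with a highest adjusted p of 0.144.

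Several secreted proteases fell, and their inhibitors moved in both directions. MMP3, stromelysin, stood at 408 and 396 CPM in senescent control and 43.4 and 43.8 CPM in the knockout, a log2 change of -3.21 (SE 0.11), edgeR adjusted p = 6.39e-09. MMP1, interstitial collagenase, stood at 3049.7 and 3090.4 CPM and 562 and 577 CPM, a log2 change of -2.43 (SE 0.10). Their growing means were 8.21 and 131 CPM, so the knockout lay between growing and senescent cells for both. MMP10, a second stromelysin, fell by 2.44 on the log2 scale (SE 0.39) and so did the membrane protease MMP16 (log2 change -0.84, SE 0.15), whereas MMP14, the membrane activator of MMP2, was not called (log2 change -0.14, SE 0.12). The inhibitors of these enzymes moved in opposite directions: TIMP1 went from 1016 and 994 CPM to 512 and 538 CPM (log2 change -0.94, SE 0.10), TIMP3 from 388 and 476 CPM to 776 and 851 CPM (log2 change 0.91, SE 0.11), and TIMP2 had 813 and 856 CPM against 853 and 885 CPM with overlapping groups (log2 change 0.06, SE 0.13). Of 16 metalloproteinases and inhibitors 6 fell and 2 rose, the second rise being MMP19 (log2 change 0.72, SE 0.13). In the plasminogen system, which cleaves fibrin and matrix, 5 of 12 genes fell and 3 rose. The activators PLAT (625 and 629 CPM against 254 and 271 CPM, log2 change -1.25, SE 0.12) and PLAU (1778 and 1761 CPM against 849 and 938 CPM, log2 change -0.99, SE 0.10) fell. Their inhibitors moved apart: SERPINB2 fell by 1.66 on the log2 scale (SE 0.10) and SERPINE2 rose by 0.64 on the log2 scale (SE 0.09). THBD, thrombomodulin, fell by 1.59 on the log2 scale (SE 0.24), and SERPINF1, an inhibitor of vessel growth, rose by 1.05 on the log2 scale (SE 0.18). PLAUR, the receptor of urokinase, was not called (log2 change -0.27, SE 0.10).

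Growth factors moved in both directions, and many were not called. The epidermal growth factor receptor ligands EREG (500.5 and 469 CPM against 73.8 and 80.5 CPM, log2 change -2.65, SE 0.11) and AREG (16.9 and 16.3 CPM against 2.31 and 2.66 CPM, log2 change -2.73, SE 0.16) fell, as did NRG1, a ligand of ERBB3 and ERBB4 (log2 change -1.09, SE 0.08). HBEGF, which binds the same receptor as EREG, had 45.5 and 44.5 CPM against 44.5 and 48.1 CPM with overlapping groups (log2 change 0.04, SE 0.10). In the list of this receptor and its ligands 4 of 7 genes fell and 1 rose (3 and 0 without any 1 library). The receptor EGFR (log2 change -0.29, SE 0.08, highest adjusted p 0.227) was the fourth fall and ERBB2, its relative, the rise (log2 change 0.41, SE 0.11, highest adjusted p 0.186). EGF itself, which the list did not hold, rose from 1.26 and 0.913 CPM to 4.96 and 4.85 CPM (log2 change 2.18, SE 0.25). BMP2, a bone morphogenetic protein, went from 142 and 131 CPM to 20.95 and 20.1 CPM (log2 change -2.73, SE 0.12) and BMP6 fell by 1.54 on the log2 scale (SE 0.20). INHBA, the activin subunit, was lower with less certainty (log2 change -0.71, SE 0.18, highest adjusted p 0.148), and FST, follistatin, which binds and blocks activin, rose from 62.1 and 66.7 CPM to 152 and 154 CPM (log2 change 1.25, SE 0.09). Of the 26 genes of the TGF-beta, activin and BMP list 8 fell and 4 rose (4 to 5 and 1 to 3 without any 1 library). Among 20 angiogenic and hormone-like factors 9 fell and 3 rose (6 and 1 to 2 without any 1 library). STC1, a secreted glycoprotein hormone, had 3729 and 3752 CPM against 1028 and 1139.9 CPM (log2 change -1.79, SE 0.10). HGF, the ligand of the MET receptor, fell by 1.12 on the log2 scale (SE 0.12), as did the lymphatic factor VEGFC (log2 change -0.96, SE 0.10), VEGFA (log2 change -0.68, SE 0.11) and the neurotrophic factor GDNF (log2 change -1.10, SE 0.17). FGF1 went against this, from 18.1 and 15.8 CPM to 59.6 and 59.8 CPM (log2 change 1.82, SE 0.11), above its growing mean of 26.4 CPM, while FGF2 was lower (log2 change -0.86, SE 0.20, highest 0.111). In the insulin-like growth factor axis the receptor IGF1R rose by 0.83 on the log2 scale (SE 0.10), and the calls for IGFBP5 (log2 change -0.41, SE 0.11, highest 0.192) and IGF2R (log2 change -0.33, SE 0.10, highest 0.21) were not kept by every alternative.

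On a list that holds HRAS and feedback genes of the RAS to ERK kinase cascade, 9 of 17 genes were lower and 1 was higher. Levels of the feedback genes are used to track ERK activity, which was not measured here. DUSP6, the phosphatase of ERK, had 300.4 and 295 CPM against 152 and 170.0 CPM (log2 change -0.89, SE 0.09), with a growing mean of 79.2 CPM. Other inhibitors of the cascade fell too, among them DUSP4 (log2 change -0.80, SE 0.13), SPRED1 (log2 change -0.79, SE 0.11), SPRY4 (log2 change -0.65, SE 0.09) and SPRY2 (log2 change -0.58, SE 0.10), and IER3, an early stress gene, fell by 1.90 on the log2 scale (SE 0.14). The ERK-responsive factors ETV4 (log2 change -0.36, SE 0.13) and ETV5 (log2 change 0.10, SE 0.10) and the phosphatase DUSP5 (log2 change 0.04, SE 0.09) were not called. HRAS, whose level is given above, is counted among the 9 (log2 change -0.61, SE 0.11). Of 20 immediate early and AP-1 genes 7 fell and 3 rose (4 to 6 and 2 to 3 without any 1 library). EGR1 (log2 change -0.98, SE 0.14), JUNB (log2 change -0.95, SE 0.14), MAFF (log2 change -0.98, SE 0.11) and the nuclear receptor NR4A2 (log2 change -1.19, SE 0.15) fell. KLF2 (log2 change 0.95, SE 0.14) and KLF4 (log2 change 1.16, SE 0.17), zinc finger factors of quiescence, rose, and the AP-1 subunits FOS (log2 change 0.11, SE 0.16) and JUN (log2 change -0.09, SE 0.10) were not called.

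Genes of the cornified envelope, a protein shell of skin keratinocytes, were among the deepest falls although the cells are fibroblasts. LCE1F had 19.6 and 18.9 CPM against 0.693 and 0.574 CPM (log2 change -4.92, SE 0.22), LCE2C 5.54 and 6.85 CPM against 0.231 and 0.313 CPM (log2 change -4.47, SE 0.50), and IVL, involucrin, 3.56 and 3.56 CPM against 0.346 and 0.104 CPM (log2 change -3.98, SE 0.47). LCE1E had 48 counts over the senescent control samples and 0 in the knockout, at least 14.6-fold lower by a floor of 3 counts over the group. In growing cells IVL and LCE1E had no count, and LCE1F averaged 0.0219 CPM. The late cornified envelope genes resemble each other, so reads may be divided among them in a way that cannot be checked here. Of 31 genes on this list of keratins and envelope genes 12 could be tested, of which 4 fell, 2 rose and 6 were not called, with a median of -0.05. TGM2, a transglutaminase that fibroblasts make, fell by 0.82 on the log2 scale (SE 0.12), and the simple-epithelium keratin KRT19 rose from 2.14 and 3.56 CPM to 10.04 and 9.80 CPM (log2 change 1.78, SE 0.22). KRT18, a keratin of the same epithelia, was not called (log2 change -0.06, SE 0.11).

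Many genes that type I interferon induces rose. The antiviral state is set by a complex that holds STAT2 and IRF9 and binds the interferon-stimulated response element (ISRE). Of 42 induced effector genes 19 rose and 0 fell, with a median of 0.73 (10 to 18 rose without any 1 library). At an unadjusted p under 0.05, 3 were lower, and DESeq2 called 0 of them lower. IFI44L, an effector often used as a marker of interferon exposure, had 2.03 and 2.10 CPM in senescent control and 10.2 and 14.9 CPM in the knockout, a rise of 2.61 on the log2 scale (SE 0.30), edgeR adjusted p = 0.000261. Its relative IFI44 rose by 1.80 on the log2 scale (SE 0.29). IFIT1, which binds viral RNA ends, had 5.21 and 6.94 CPM against 14.5 and 23.2 CPM (log2 change 1.63, SE 0.24), and OAS2, which makes the signal for RNA decay, 1.32 and 1.78 CPM against 4.04 and 7.93 CPM (log2 change 1.94, SE 0.37). In each of these genes the second knockout sample was the higher, and the groups did not overlap. OAS3 (log2 change 1.24, SE 0.23), the GTPase GBP1 (log2 change 1.17, SE 0.12), PARP9 (log2 change 1.26, SE 0.19) and IFI6 (log2 change 0.97, SE 0.16) rose as well. Weaker calls were MX1 (log2 change 1.43, SE 0.34, highest adjusted p 0.124), OAS1 (log2 change 2.00, SE 0.42, highest 0.126) and ISG15 (log2 change 0.75, SE 0.22, highest 0.342). Growing means lay below the knockout for IFI44L (0.711 CPM), IFIT1 (5.39 CPM) and OAS2 (0.377 CPM). Upstream, STAT2 rose by 0.54 on the log2 scale (SE 0.10), the factor IRF1 fell by 0.76 on the log2 scale (SE 0.14) and the inhibitor SOCS3 fell with it (log2 change -1.42, SE 0.16). IFNB1, the gene of interferon beta, had 0 counts in all 4 libraries. Of 18 antigen presentation genes 2 rose and 1 fell, and B2M, the shared light chain of class I, was not called (log2 change 0.21, SE 0.08).

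The ISRE core, which is GAAA followed by any 2 bases and GAAA on either strand, was present in the 250 bases upstream of the start in 60.0% of the 35 interferon-induced effectors that had a RefSeq promoter, against 2.5% of all 11548. The promoter of IFI44L, the effector that rose the most, is shown because it holds the core in 2 places, in capitals (chr1:78620198-78620447, + strand, GRCh38.p14, 5′ to 3′, ending at the base before the start).
IFI44L: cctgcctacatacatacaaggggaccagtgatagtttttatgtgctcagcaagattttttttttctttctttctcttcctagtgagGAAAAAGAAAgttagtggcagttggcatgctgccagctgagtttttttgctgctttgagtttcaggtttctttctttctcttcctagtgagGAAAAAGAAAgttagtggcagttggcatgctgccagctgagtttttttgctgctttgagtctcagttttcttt
Over all genes that rose by at least 1 on the log2 scale the core was in 5.2% of promoters. It was in 2.7% for those that fell by as much. The genes that rose include effectors, of which 12 of 42 rose by as much, so the 5.2% repeats part of the list's share. A match describes the letters only. CXCL10, which is both an interferon and an NF-kB target, fell and was counted with the chemokines.

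Division genes were higher in the knockout, in mitosis more than in replication by their counts. Of 54 mitosis and spindle genes 48 rose and 0 fell, with a median of 1.14 (38 to 47 rose without any 1 library). MKI67, a marker of cycling cells, had 34.2 and 36.9 CPM in senescent control and 104 and 83.1 CPM in the knockout (log2 change 1.39, SE 0.20). The mitotic kinase CDK1 had 4.55 and 4.75 CPM against 10.8 and 10.1 CPM (log2 change 1.16, SE 0.17), and its cyclin CCNB2 5.37 and 6.62 CPM against 13.7 and 12.98 CPM (log2 change 1.14, SE 0.15). For these 3 genes the growing means were 278, 32.1 and 53.4 CPM, so the knockout stayed below growing cells. The regulators MYBL2 (log2 change 1.77, SE 0.23) and FOXM1 (log2 change 0.89, SE 0.13), which switch on mitotic genes, rose, as did the spindle kinesin KIF20A (log2 change 1.37, SE 0.13), NUSAP1 (log2 change 1.52, SE 0.24) and the motor KIF2C (log2 change 1.44, SE 0.15). Of 41 DNA replication genes 22 rose and 0 fell, with a median of 0.45, and 6 to 11 rose without any 1 library. TK1, thymidine kinase, rose by 1.22 on the log2 scale (SE 0.17), as did TYMS, which makes thymidylate (log2 change 0.99, SE 0.14), the origin licensing factor CDC6 (log2 change 0.94, SE 0.11) and the helicase subunit MCM6 (log2 change 0.68, SE 0.12), while MCM2 was not called (log2 change 0.49, SE 0.17). E2F1, the factor that drives this group, had 4.72 and 4.84 CPM against 5.66 and 4.75 CPM with overlapping groups (log2 change 0.12, SE 0.16). Its repressive relatives moved apart: E2F7 fell by 0.56 on the log2 scale (SE 0.08) and E2F8 rose by 2.55 on the log2 scale (SE 0.57), with a highest adjusted p of 0.0875. Replication-dependent histones went with the group, with H1-3 at 1.65 and 2.42 CPM against 7.73 and 7.41 CPM (log2 change 1.87, SE 0.18) and H3C12 higher as well (log2 change 1.45, SE 0.22). Of 20 histone genes 11 rose and 0 fell (7 to 10 rose without any 1 library), and reads of near-identical histone genes may be divided in a way that cannot be checked. At an unadjusted p under 0.05, 0 mitosis genes, 0 replication genes and 1 histone gene were lower, and DESeq2 called 0 of them lower.

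The CHR element, TTTGAA, and the CCAAT box are paired in promoters of many mitotic genes. On either strand of the 250 upstream bases, TTTGAA was in 48.9% and CCAAT in 76.6% of the 47 mitosis genes with a RefSeq promoter, against 9.0% and 34.9% of all 11548. Among genes that rose by at least 1 on the log2 scale the shares were 20.8% and 46.7% of 212. Among genes that were not called they were 8.8% and 34.9%. The genes that rose include mitosis genes, of which 35 of 54 rose by as much, so their shares repeat part of the list's. CCNB2 is shown because it carries 4 CCAAT boxes and 1 CHR, in capitals (chr15:59104896-59105145, + strand, GRCh38.p14, 5′ to 3′, ending at the base before the start).
CCNB2: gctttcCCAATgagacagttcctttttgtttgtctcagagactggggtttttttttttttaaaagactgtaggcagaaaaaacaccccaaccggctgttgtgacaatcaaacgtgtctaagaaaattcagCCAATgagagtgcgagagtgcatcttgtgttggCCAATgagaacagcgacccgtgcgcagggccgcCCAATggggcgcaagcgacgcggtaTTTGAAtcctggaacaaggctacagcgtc
A match describes these letters only.

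The brakes of the cycle and the lamina were measured beside these genes. CDKN2B, the inhibitor p15, had 81.5 and 83.3 CPM in senescent control against 44.3 and 50.3 CPM in the knockout (log2 change -0.80, SE 0.10), with 11.1 CPM in growing cells. CDKN2A, the locus of p16 and ARF, had 55.7 and 59.1 CPM against 37.5 and 39.1 CPM (log2 change -0.58, SE 0.09), close to the growing mean of 36.00 CPM. CDKN1A, the p53-induced inhibitor p21, was lower (log2 change -0.34, SE 0.10, edgeR adjusted p = 0.0326, highest over the alternatives 0.205). CDKN2C, the inhibitor p18, rose from 0.548 and 0.502 CPM to 2.37 and 2.29 CPM (log2 change 2.14, SE 0.27). RB1 was not called (log2 change 0.15, SE 0.15). Of 28 p53 targets 6 rose and 2 fell, and 2 and 1 without any 1 library. BTG2, an antiproliferative gene, rose by 1.02 on the log2 scale (SE 0.10), SPATA18 rose as well (log2 change 0.64, SE 0.09), PLK3 fell by 0.64 on the log2 scale (SE 0.11), and MDM2 was not called (log2 change 0.08, SE 0.11). LMNB1, the lamin lost in senescence, had 2.96 and 2.69 CPM against 8.20 and 7.09 CPM (log2 change 1.43, SE 0.17), and HMGB2, a chromatin protein lost with it, 4.66 and 5.71 CPM against 12.99 and 10.53 CPM (log2 change 1.17, SE 0.17). Both knockout means lay well under the growing means of 59.4 and 52.6 CPM. HMGA2, a builder of senescence-associated heterochromatin, fell by 0.93 on the log2 scale (SE 0.11), and LMNA was not called (log2 change 0.10, SE 0.10). Of 20 lamina and heterochromatin genes 4 rose and 2 fell (2 to 3 and 1 without any 1 library).

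**Figure D4:**
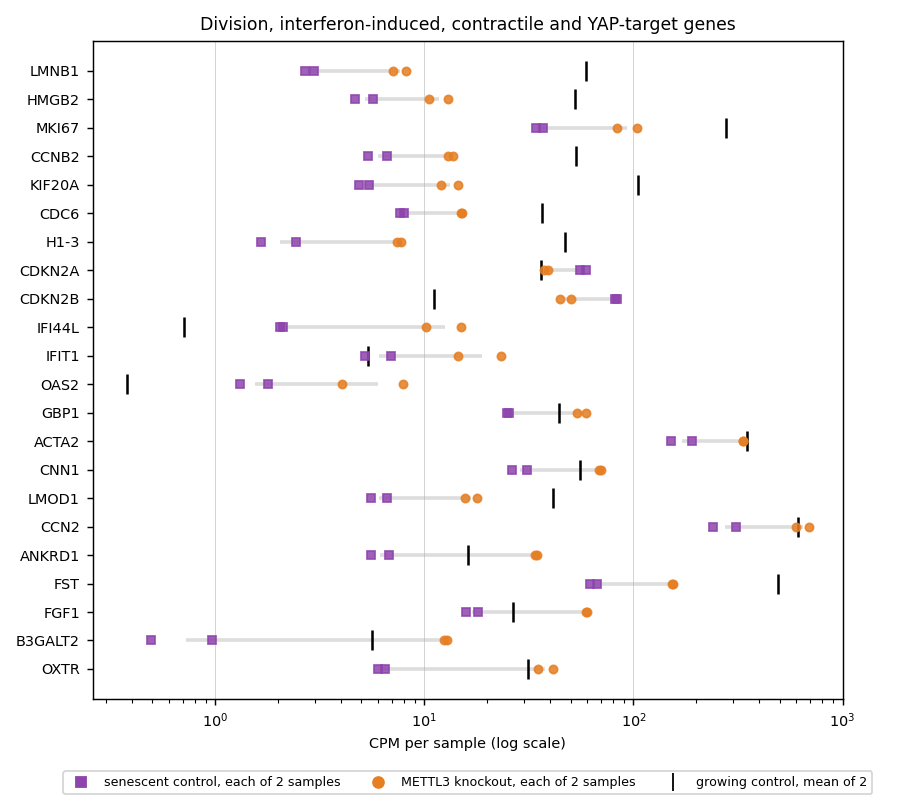
CPM (log scale) of division, lamina, interferon-induced, contractile and YAP-target genes in each sample of senescent control (squares) and METTL3 knockout (circles), with the mean of growing cells as a bar. Circles lie right of the squares except for CDKN2A and CDKN2B, which lie left. For LMNB1, MKI67 and KIF20A the growing bar lies further right, and for IFI44L and OAS2 it lies left of both.

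Matrix genes moved both ways, and contractile genes mostly up. Of 31 collagen genes and collagen-processing enzymes 8 rose and 6 fell (4 to 6 and 2 to 3 without any 1 library). COL8A1 (log2 change 0.90, SE 0.09), COL11A1 (log2 change 0.85, SE 0.15) and COL13A1 (log2 change 0.68, SE 0.11) rose, and COL6A3 (log2 change -0.68, SE 0.12) and PCOLCE, an enhancer of procollagen cleavage (log2 change -0.69, SE 0.13), fell. The main fibrillar collagen COL1A1 was not called (log2 change 0.28, SE 0.20), and COL1A2 (log2 change 0.59, SE 0.13, highest adjusted p 0.11) and COL3A1 (log2 change 0.55, SE 0.13, highest 0.169) were higher. In the proteoglycan and matricellular list 7 of 26 rose and 4 fell (2 to 7 and 0 to 1 without any 1 library), with the elastic fibre genes ELN (0.110 and 0.365 CPM against 1.501 and 1.41 CPM, log2 change 2.53, SE 0.47) and EFEMP1 (log2 change 0.86, SE 0.13) higher and fibronectin, FN1, not called (log2 change -0.01, SE 0.12). Smooth muscle contractile genes, which mark myofibroblasts, rose in 10 of 22 cases and fell in 1, with a median of 0.38 (5 to 7 and 1 without any 1 library). ACTA2, smooth muscle actin, had 152 and 189.7 CPM against 333 and 332 CPM (log2 change 0.96, SE 0.11), CNN1, calponin, 26.3 and 31.1 CPM against 68.1 and 70.2 CPM (log2 change 1.27, SE 0.13), and LMOD1, which seeds actin filaments, 5.54 and 6.62 CPM against 15.7 and 17.9 CPM (log2 change 1.46, SE 0.14). ACTC1, cardiac actin, rose by 2.58 on the log2 scale (SE 0.49). The fall was that of MYOCD, the cofactor of SRF that switches on this programme, from 6.53 and 5.62 CPM to 2.60 and 2.24 CPM (log2 change -1.32, SE 0.20), and SRF was not called (log2 change 0.07, SE 0.10). A match to the CArG box, the element SRF binds, was present upstream of 33.3% of 18 contractile genes against 1.0% of all promoters.

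YAP1 fell, and some of the genes it is known to activate rose. YAP1 is the cofactor through which the Hippo pathway and cell tension act on TEAD transcription factors. It had 452 and 454 CPM in senescent control and 271 and 271 CPM in the knockout (log2 change -0.74, SE 0.08, edgeR adjusted p = 8.96e-05). Its paralog WWTR1 (log2 change -0.21, SE 0.10) and the partner TEAD1 (log2 change 0.18, SE 0.14) were not called. Of 22 genes of this list 8 rose and 2 fell (5 and 1 without any 1 library). CCN2, connective tissue growth factor, had 239 and 309 CPM against 599.7 and 690.3 CPM (log2 change 1.23, SE 0.14), and CCN1 178 and 203 CPM against 342 and 364 CPM (log2 change 0.89, SE 0.12). ANKRD1, an ankyrin repeat cofactor, had 6.74 and 5.52 CPM against 33.7 and 34.7 CPM (log2 change 2.48, SE 0.19). No sample of the groups overlapped in these genes, and the knockout means of CCN2 and ANKRD1 were above the growing means of 612 and 16.1 CPM. AMOTL2 (log2 change 0.61, SE 0.10) and CRIM1 (log2 change 0.66, SE 0.09) rose as well. FJX1, also a target, was lower (log2 change -0.68, SE 0.14, highest adjusted p 0.0725), and 12 genes of the list were not called. The TEAD site, GGAATG on either strand, was in 29.4% of the 17 promoters of this list and in 9.6% of all. CCN2 is shown with its 3 places in capitals (chr6:131951373-131951622, - strand, GRCh38.p14, 5′ to 3′, ending at the base before the start).
CCN2: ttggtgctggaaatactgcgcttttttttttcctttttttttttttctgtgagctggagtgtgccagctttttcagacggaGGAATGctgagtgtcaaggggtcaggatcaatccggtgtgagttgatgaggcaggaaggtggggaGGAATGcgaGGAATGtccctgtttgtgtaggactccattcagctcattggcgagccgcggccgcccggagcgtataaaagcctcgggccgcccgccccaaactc
A match again describes the letters only.

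Integrins and laminins, the cell's matrix receptors and basement membrane proteins, were lower in 7 of 27 cases and higher in 1 (3 to 4 and 0 without any 1 library). ITGB8, which releases active TGF-beta, fell by 1.62 on the log2 scale (SE 0.26), as did ITGA8 (log2 change -1.36, SE 0.19) and LAMB1 (log2 change -0.62, SE 0.09). In the Notch pathway 4 of 15 genes fell and 0 rose (2 to 3 without any 1 library). The target HEY1 had 7.40 and 7.21 CPM against 2.31 and 2.50 CPM (log2 change -1.60, SE 0.17), the ligand DLL4 fell by 1.21 on the log2 scale (SE 0.19), and the receptor NOTCH1 was not called (log2 change -0.16, SE 0.16). PDGFRA, a receptor that marks fibroblasts, went from 333 and 335 CPM to 150.0 and 152 CPM (log2 change -1.14, SE 0.10), below its growing mean of 282 CPM.

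Targets of NRF2, the factor that answers oxidative stress, were lower in 16 of 20 cases and higher in 1, with a median of -0.61 (15 lower without any 1 library). NQO1, a quinone reductase and a usual readout of NRF2, had 179.6 and 171 CPM in senescent control and 54.5 and 53.9 CPM in the knockout, a log2 change of -1.69 (SE 0.10), edgeR adjusted p = 4.07e-07. AKR1B1, aldose reductase, had 681 and 610.3 CPM against 153 and 163 CPM (log2 change -2.03, SE 0.11). The knockout lay below the growing means of both genes, 231 and 205 CPM. The mean of senescent control lay below the growing mean for NQO1 and above it for AKR1B1, which was not tested. SLC7A11, which imports cystine for glutathione, had 279.8 and 319 CPM against 78.6 and 81.2 CPM (log2 change -1.91, SE 0.35, highest adjusted p 0.0577). AKR1C1 (log2 change -1.54, SE 0.22), the malic enzyme ME1 (log2 change -0.72, SE 0.08), GCLC, the catalytic subunit of glutathione synthesis (log2 change -0.69, SE 0.09), and thioredoxin, TXN (log2 change -0.68, SE 0.09), fell too. The second subunit, GCLM, had 34.7 and 36.7 CPM against 34.2 and 34.9 CPM with overlapping groups (log2 change -0.04, SE 0.12). HMOX1, heme oxygenase, was the rise (log2 change 0.40, SE 0.12, highest adjusted p 0.292). NFE2L2, the gene of NRF2 (log2 change -0.32, SE 0.12), and its inhibitor KEAP1 (log2 change -0.22, SE 0.10) were not called. SQSTM1, an autophagy receptor that binds KEAP1 and is itself an NRF2 target, fell from 725 and 672 CPM to 339 and 353 CPM (log2 change -1.01, SE 0.10). The core of the antioxidant response element, TGACNNNGC, was in 26.7% of 15 promoters of the list against 12% of all.

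In glycolysis 16 of 23 genes fell and 2 rose, with a median of -0.44 (10 to 12 and 1 without any 1 library). HK2, the inducible hexokinase, had 186 and 192 CPM against 82.8 and 91.8 CPM (log2 change -1.11, SE 0.10), against a growing mean of 58.5 CPM. LDHA, which makes lactate, had 707 and 704 CPM against 462 and 441 CPM (log2 change -0.64, SE 0.09). The falls ran along the pathway, through HK1 (log2 change -0.55, SE 0.09), PFKP (log2 change -0.48, SE 0.09), TPI1 (log2 change -0.58, SE 0.09), GAPDH (log2 change -0.52, SE 0.09), ENO2 (log2 change -0.80, SE 0.10) and PKM (log2 change -0.48, SE 0.09) to the lactate exporters SLC16A1 (log2 change -0.77, SE 0.10) and SLC16A3 (log2 change -0.60, SE 0.10). SLC2A1, the glucose importer at the start, went the other way, from 119 and 144 CPM to 202 and 222 CPM (log2 change 0.69, SE 0.12). Metallothioneins and metal carriers, which bind zinc and copper, fell in 5 of 7 cases (3 to 4 without any 1 library), with MT2A at 1035 and 949 CPM against 461 and 464 CPM (log2 change -1.10, SE 0.12), and with MT1L (log2 change -1.47, SE 0.10) and the zinc carrier SLC39A14 (log2 change -0.69, SE 0.10) among the falls. Metallothionein genes are near copies of each other and their reads may be divided. Of 34 lysosome and autophagy genes 11 fell and 2 rose (6 and 0 to 2 without any 1 library). The cathepsins CTSS (8.55 and 6.62 CPM against 1.39 and 1.88 CPM, log2 change -2.20, SE 0.23), CTSL (log2 change -1.15, SE 0.09) and CTSB (log2 change -0.60, SE 0.09) and the cholesterol exporter NPC1 (log2 change -0.83, SE 0.09) fell. GLB1, the beta-galactosidase behind the blue stain of senescent cells, had 88.6 and 90.1 CPM against 83.4 and 93.5 CPM with overlapping groups (log2 change -0.01, SE 0.11).

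**Figure D5:**
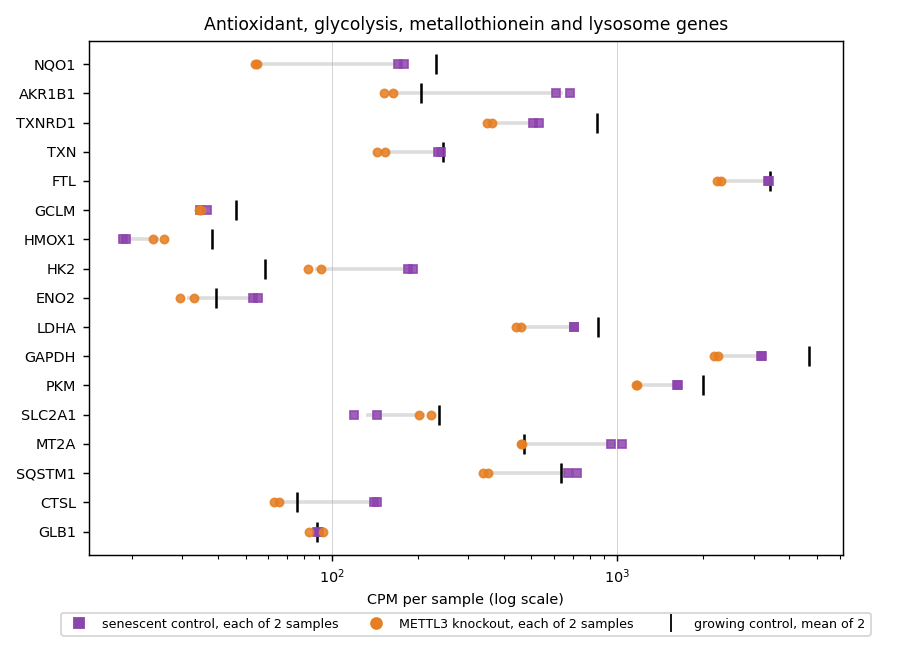
CPM (log scale) of antioxidant, glycolysis, metallothionein and lysosome genes in each sample of senescent control (squares) and METTL3 knockout (circles), with the mean of growing cells as a bar. Circles lie left of the squares and of the growing bar for NQO1, TXNRD1, LDHA and GAPDH, lie right of the squares for SLC2A1 and HMOX1, and overlap them for GCLM and GLB1.

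Few genes of several large housekeeping groups were called. Of 44 cytosolic ribosomal protein genes 1 rose and 1 fell, of 30 proteasome subunits 0 rose and 2 fell, and of 39 respiratory chain genes 0 rose and 3 fell, with medians of -0.14, -0.15 and -0.14. Most members lay below 0, which were 40 of 44, 27 of 30 and 32 of 39, and a fit to the 4 samples alone called 19, 17 and 13 of them lower, against 3095 of all 16760 genes. None of 26 splicing factors was called in either direction by edgeR (median 0.01), with 1 higher and 1 lower at an unadjusted p under 0.05 and 0 by DESeq2. In cholesterol synthesis 6 of 27 genes fell, and 4 of 20 aminoacyl-tRNA synthetases did, but none of them was called lower once any 1 library was left out. Of 17 heat shock chaperones 3 fell and 1 rose, and none was called once any 1 library was left out. In the unfolded protein response list 3 of 22 fell and 1 rose, the rise being the sensor kinase EIF2AK3 (log2 change 0.73, SE 0.13). Of 21 genes of the ATF4 amino acid response 6 fell and 3 rose (2 to 4 and 2 to 3 without any 1 library). The cystine and amino acid carrier chain SLC3A2 fell by 0.63 on the log2 scale (SE 0.10), the arginine carrier SLC7A1 rose by 0.68 on the log2 scale (SE 0.11) and the folate enzyme ALDH1L2 rose by 1.30 on the log2 scale (SE 0.13). Of 20 long noncoding RNAs listed and tested 4 fell and 1 rose (2 to 4 and 0 to 1 without any 1 library). MIR31HG, a senescence-linked transcript, had 17.5 and 16.3 CPM against 9.93 and 8.71 CPM (log2 change -0.86, SE 0.14), and FENDRR, a lung mesenchyme transcript, fell by 0.70 on the log2 scale (SE 0.11).

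Outside the lists, the largest rises that met the naming rule had no common family. B3GALT2, a galactosyltransferase, had 0.494 and 0.959 CPM against 12.9 and 12.4 CPM (log2 change 4.07, SE 0.25), above its growing mean of 5.63 CPM. OXTR, the oxytocin receptor, had 5.98 and 6.48 CPM against 34.9 and 40.99 CPM (log2 change 2.60, SE 0.18). The potassium channel subunit KCNJ8 (log2 change 2.11, SE 0.25), the lipase LIPH (log2 change 2.13, SE 0.23) and JPH2, which ties the surface membrane to calcium stores (log2 change 2.10, SE 0.31), rose as well. CDRT4 was called (log2 change 2.93, SE 0.73) with a highest adjusted p of 0.185 over the alternatives. EEF1A1P5, a pseudogene of a translation elongation factor, had 0 counts in senescent control and 105 in the knockout, at least 38.5-fold higher by a floor of 3 counts over the group. Its sequence is close to that of its parent gene, whose reads may be counted with it, so this value is uncertain.

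Levels were placed against growing cells for called genes with a log2 change of 1 or more in either direction. This uses the senescent control mean on both sides and is a description with no test. Of 327 genes that fell, 306 had a growing mean below that of senescent control, and the knockout mean lay between the other means in 182 and at or below both in 145. Of 342 genes that rose, 296 had a growing mean above that of senescent control, and the knockout mean lay between in 190 and at or above both in 152. MMP1, CXCL8, MKI67 and LMNB1 are among those that lay between, CCL2, IL1R1 and AKR1B1 among those below both, and IFI44L, ANKRD1 and FGF1 among those above both.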

How the data were processed

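RNA of IMR90 cells was sequenced after library preparation with KAPA RNA HyperPrep, per the labels' protocols. Reads were aligned with Bowtie2 (version not given) to hg19 and quantified with RSEM 1.2.12, per the submitters' processing notes. The sources used here do not give the annotation, the strand setting or how reads with several matches were counted. The deposited values are whole-number counts per gene, with no normalization by the authors found in them. Of 57736 genes, 39501 had a symbol. Genes were tested with edgeR 4.0.16 (limma 3.58.1, R 4.3.3): filterByExpr with a minimum count of 10 kept 16760, counts were scaled by TMM, and a robust quasi-likelihood fit over all 10 samples in 5 groups gave the contrast of METTL3 knockout minus senescent control, with Benjamini-Hochberg adjustment and a threshold of 0.05. The 6 other samples entered the filter on low counts, the scaling and the shared estimate of spread. They did not enter the contrast itself, and the growing samples among them also served to place levels. Standard errors are the log2 change over the root of F. Alternatives were upper-quartile scaling, no filter, the 4 samples alone, DESeq2 1.42.0, a replicate block and leaving out each of the 4 libraries.

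The rule set which genes could be named, and not all of them were: the 12 largest rises and falls with a mean of at least 2 CPM and no overlap, and in each list set anchors, up to 8 of the largest called changes, called members against the list's direction, and any called member of lists with 5 or fewer. The comparison, the lists and their members were chosen with earlier results of these data known. Promoters are from RefSeq (GRCh38.p14), matched by symbol for 11548 tested genes, and 250 upstream bases were searched on both strands. No hg19 coordinates were used. Replicates of a group differed beyond sampling noise, with a chi-square per gene of 5.46 in senescent control and 5.67 in the knockout. It was 6.69 with wild type METTL3 knock-in, 7.95 with mutant METTL3 knock-in and 37.96 in growing cells. The growing replicates thus differed most, and they entered both the shared estimate of spread and the growing means given above.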

Additional observations from a re-analysis of the deposited data

How the results depend on the processing

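METTL3 stayed lower under all 9 alternatives, from -1.17 to -0.86 on the log2 scale when 1 library was left out, with an adjusted p of at most 0.0185. The count of genes called depended on the processing. Against 1202 higher and 1444 lower, upper-quartile scaling gave 1452 and 1204, no filter 1389 and 1740, DESeq2 955 and 1247, and the 4 samples alone, which estimate their own spread, 2526 and 3095. Leaving out 1 library gave 501 to 613 higher and 689 to 755 lower; there the lone sample of a group is assumed to vary like the other groups. Of the 2646 genes called, 2406 were also called under upper-quartile scaling, 2500 with no filter, 2618 in the 4 samples alone, 2119 by DESeq2 and 1168 to 1335 without a library, all in the same direction. Of the genes that the report names as not called, 5 changed sign: FN1 to 0.030 and GLB1 to 0.029 under upper-quartile scaling, and without 1 library CXCL11 ranged from -0.46 to 0.66, E2F1 from -0.019 to 0.24, FN1 from -0.085 to 0.059, GLB1 from -0.100 to 0.057 and HBEGF from -0.015 to 0.089. Upper-quartile scaling moved the median of all genes from 0.006 to 0.05 and the share of calls that were higher from 45.4% to 54.7%. With it 7 of 26 NF-kB genes were lower in place of 10, 3 of 27 cholesterol synthesis genes in place of 6, and 6 of 34 lysosome genes in place of 11. Of 430 called genes of the lists or the naming rule, 235 were called under every alternative.

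Deviations from the group means of senescent control and knockout samples with the same replicate number had a correlation of 0.021. No effect shared by samples of the same number was thus seen, and whether they were handled together is not stated. A fit with the replicate number as a block gave 1145 higher and 1393 lower.

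With 2 samples in each group, changes of genes at a few counts have wide errors, and genes such as IL1RN, TNF and IFNB1 were too low to test at these depths.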

Other observations

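By annotated gene type, 1089 of 13333 protein-coding genes (8.17%) were called higher and 1363 (10.22%) lower. Among 758 lincRNA genes 24 were higher and 22 lower, and among 703 antisense genes 13 were higher and 12 lower. Antisense reads cannot be told from those of the partner gene, since the strand setting is not given.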
